A study of Equus caballus with 10 samples.

Results

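In whole blood of Arabian horses, 32 genes had a lower messenger RNA count in each of the 4 trained horses than in any of the 6 untrained horses. They were chosen by that separation alone, from 964 genes with at least 10 counts in at least 4 of the 10 libraries, after the 37 highest-numbered of 26991 gene IDs had been set aside. Counts were first divided by a size factor per library, the median over genes of each library's count relative to the geometric mean of all libraries, and such values are called normalized counts below. The 32 genes are 3.32% of the 964, and 42 other genes lay higher in every trained horse. Because the separation between the groups chose the genes, their trained and untrained values are a description and not a test of training.

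The untrained horses were males 17, 50, 52 and 53 and females 49 and 51, all at an age of 2.5 years. Males 21 and 33 and females 31 and 32 were in racing training and had an age of 3 years, which gives 4 and 2 untrained and 2 and 2 trained males and females. The series title sets the comparison in the field of bone remodelling during race training. Training and age differ together, so their parts in any difference cannot be told apart.

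Blood RNA comes mainly from white cells, with a share from red cell precursors and platelets. In horses the spleen stores red cells and releases them into the circulation on exertion, and horse red cells normally finish maturing in the bone marrow. In RNA from whole blood, fewer cells of a type and less RNA per cell cannot be told apart.

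The deposited tables name genes by Ensembl ID only, and a horse reference gene table matched 0 of these IDs. The files do not pair IDs with symbols, so what the 32 genes encode, where they lie and which blood cells express them are not described, and the tissue label could not be checked on marker genes. Only 2 members are given by ID: the one with the largest fall and the most deeply counted of the rest. The others are called by their rank from 1 (highest mean normalized count) to 32. Ranks order counts and are not corrected for gene length, so they do not order transcript abundance.

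Library totals were 108716 to 129195 counts in untrained horses and 70899 to 117853 in trained horses, with the lowest in horse 33. Such totals are very low for RNA-seq, so many values below rest on few counts. Dividing each total by its size factor gave 98999 to 112040 in untrained horses, 100632 in horse 31, 108142 in horse 32, 119917 in horse 33 and 134056 in horse 21. The 10 most deeply counted genes took 29.7% to 32.5% of the counts in untrained horses, 30.6% and 33.1% in trained females 31 and 32, and 36.2% and 36.9% in trained males 33 and 21. The trained males thus stood apart from the other horses on both measures, and their part in the results below was not tested. The number of members, the summed value, the spread, the correlation and the training calls are given with and without them.

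**Figure D1:**
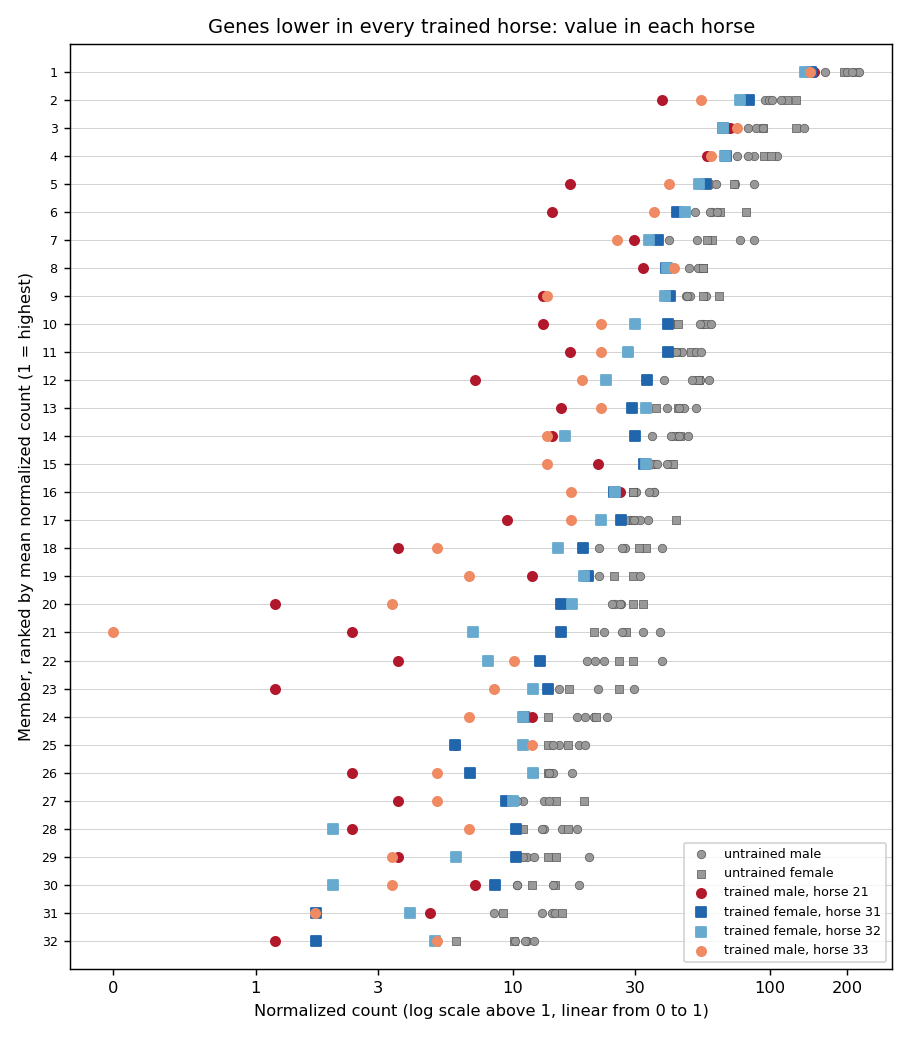
Each row is one of the 32 genes, ranked by mean normalized count, and each point is one horse; the horizontal axis is the normalized count, on a log scale above 1 and linear from 0 to 1, with circles for males, squares for females, grey for untrained horses and colours for trained horses. In every row the trained points lie left of the grey points, by a narrow gap in most rows, and horse 21 is the lowest in 19 of 32 rows.

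Summed over the 32 genes, untrained horses had 1424 ± 78.1 normalized counts (SD, n = 6) and trained horses 808 ± 176 (SD, n = 4). The untrained sums were 1309 in horse 17, 1409 in horse 49, 1482 in horse 50, 1535 in horse 51, 1388 in horse 52 and 1420 in horse 53. The trained sums were 610 in horse 21, 717 in horse 33, 909 in horse 32 and 996 in horse 31. The trained horses were spread more widely than the untrained ones, and the males lay below the females. As a share of all counts of a library, the 32 genes took 1.27% to 1.497% in untrained horses. In trained horses they took 0.455% in horse 21, 0.598% in horse 33, 0.841% in horse 32 and 0.989% in horse 31, so the order of the trained horses was the same without size factors. The mean sum of trained horses over that of untrained horses was -0.82 on the log2 scale with all 4 trained horses and -0.58 without males 21 and 33.

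The mean in trained horses was 22.2% to 75.0% of the mean in untrained horses across the 32 genes, with a median of 51.2%. On the log2 scale the differences ran from -2.17 to -0.42, with a median of -0.97, against a median of 0.01 over the 964 genes. In 13 members the trained mean was under 50% of the untrained mean. The members were counted about as deeply as the rest: their mean normalized count over the 10 horses had a median of 27.8, against 27.3 over the 964 genes. The median log2 difference was -0.80 at ranks 1 to 16 and -1.29 at ranks 17 to 32. The rule fixes the sign of these values and asks for a larger fold where counts are thin. All but 12 members also passed the count filter only through the untrained horses. For both reasons no relation with depth is read from these values. The coefficient of variation (SD over mean) among trained horses had a median of 35.1% at ranks 1 to 16 and 56.8% at ranks 17 to 32.

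**Figure D2:**
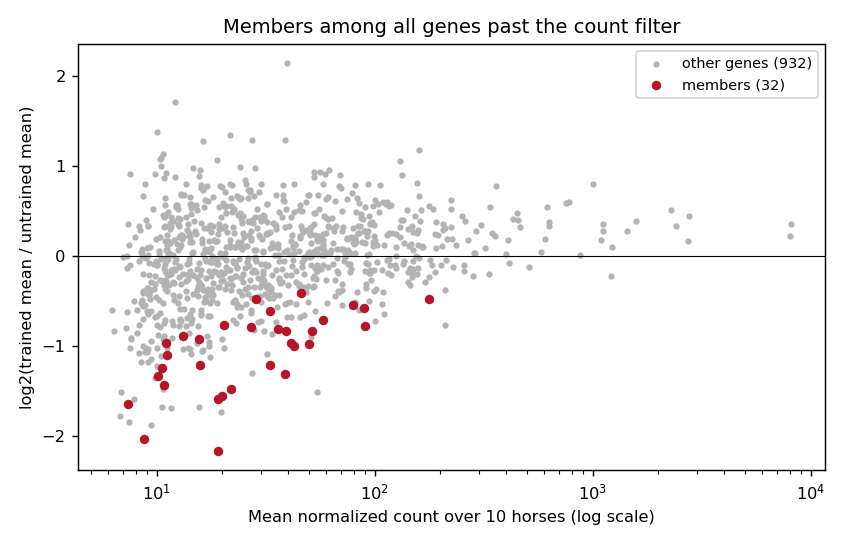
Each point is one of the 964 genes, with its mean normalized count over 10 horses on a log axis and log2(trained mean over untrained mean) on the vertical axis; red points are the 32 members. The members lie between -2.17 and -0.42, and other genes with comparable falls remained outside because at least 1 horse crossed into the range of the other group.

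The largest fall, by the ratio of group means, was in ENSECAG00000013495, at rank 21. In edgeR's fit rank 31 had a slightly larger one, with log2 fold changes of -1.99 at rank 31 and -1.93 at rank 21. For ENSECAG00000013495, the normalized counts in untrained horses were 22.7 in horse 17, 27.5 in horse 49 and 26.7 in horse 50. They were 20.6 in horse 51, 37.2 in horse 52 and 32.1 in horse 53. In trained horses they were 2.38 in horse 21, 15.4 in horse 31, 6.99 in horse 32 and 0 in horse 33. The trained males had the lowest values, while trained female 31 came nearest to the untrained horses. The mean was 27.8 ± 6.10 (SD, n = 6) in untrained and 6.18 ± 6.78 (SD, n = 4) in trained horses, a log2 difference of -2.17. These values rest on 24 to 44 counts in untrained libraries and on 2, 18, 7 and 0 counts in horses 21, 31, 32 and 33. A count of 0 in the shallow library of horse 33 allows up to 3 counts, or 5.07 normalized counts, which is above the value of horse 21.

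The most deeply counted member was ENSECAG00000022388, at rank 1, and it had a different profile among the trained horses. Untrained horses had 163 in horse 17, 195 in horse 49, 199 in horse 50, 217 in horse 51, 222 in horse 52 and 209 in horse 53. Trained horses had 149 in horse 21, 145 in horse 31, 137 in horse 32 and 144 in horse 33. All trained horses were at nearly one level, with neither sex below the other. The mean was 201 ± 20.9 (SD, n = 6) in untrained and 144 ± 4.97 (SD, n = 4) in trained horses, a log2 difference of -0.48. The lowest untrained horse, 17, was 1.099 times the highest trained horse, 21, and their 95% exact Poisson intervals (140 to 190 and 124 to 177) overlapped.

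**Figure D3:**
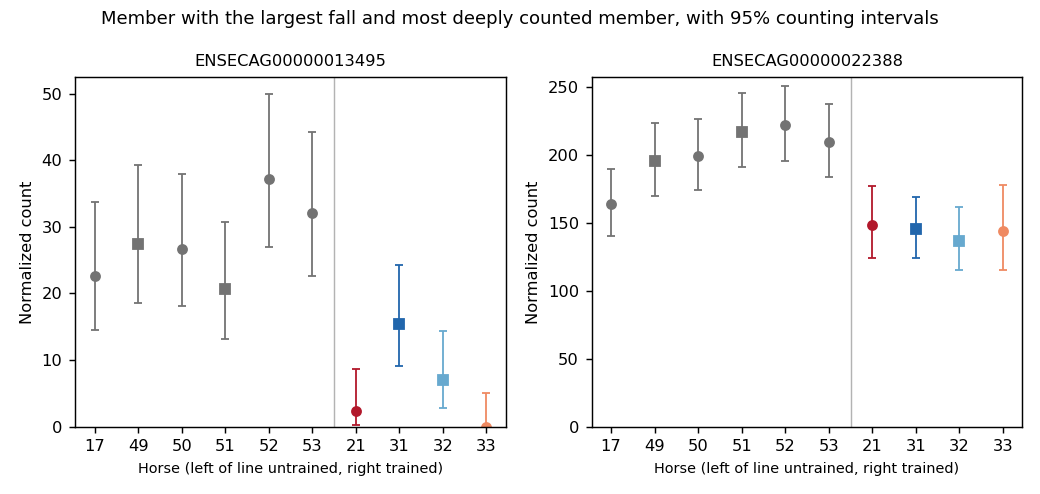
Normalized counts of the member with the largest fall (left) and the most deeply counted member (right) in each horse; bars are 95% exact Poisson intervals of the count (for the count of 0, the limit of 3 counts), circles are males and squares females. On the left the trained horses range from 0 to 15.4, and on the right they lie between 137 and 149.

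This close trained level was seen in few members. In 5 of the 32, at ranks 1, 3, 4, 7 and 8, the highest trained horse was less than 1.5 times the lowest; this limit was set after the values had been seen. Their trained ranges were 1.09- to 1.45-fold and their log2 differences -0.98 to -0.42, with a median of -0.54. Rank 3 had 82.2 to 136 normalized counts in untrained horses, with a median of 94.0, and 70.1, 65.7, 65.9 and 74.4 in trained horses 21, 31, 32 and 33. Rank 4 had 74.4 to 107 in untrained horses and 57.1, 67.5, 66.9 and 59.2 in the same trained horses. Rank 7 fell further than the other 4, from 62.0 ± 16.8 (SD, n = 6) to 31.4 ± 4.96 (SD, n = 4), and its untrained horses were themselves spread from 40.6 to 86.7. In rank 8 the groups barely separated, at 42.29 in untrained horse 52 and 42.28 in trained horse 33.

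The other 27 members had a median log2 difference of -0.999 and no single trained profile. Some were graded from horse to horse. In rank 12, untrained horses had 38.7 to 58.1 normalized counts, with a median of 52.8, and trained horses had 33.3 in horse 31, 23.0 in horse 32, 18.6 in horse 33 and 7.13 in horse 21. Rank 20 was split by sex among the trained horses more than graded. It had 24.3 to 32.1 in untrained horses, 15.4 and 16.97 in trained females 31 and 32, and 3.38 and 1.19 in trained males 33 and 21. Rank 18 had 21.7 to 38.1 in untrained horses, 18.8 and 14.97 in the same females, and 5.07 and 3.57 in the same males. In each of these 3 members the trained females lay between the trained males and the untrained horses.

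Rank 9 was also split by sex more than graded, with 41.0 and 38.9 in trained females 31 and 32, 13.5 and 13.1 in trained males 33 and 21, and 47.4 to 63.6 in untrained horses. The lowest untrained horse was 1.16 times the higher of the trained females. Rank 2 had 82.8 and 76.9 in the trained females, 54.1 and 38.0 in trained males 33 and 21, and 95.4 to 126 in untrained horses. Rank 14 had 1 trained horse apart, horse 31 at 29.9, while horses 32, 21 and 33 had 15.97, 14.3 and 13.5, against 34.9 to 48.2 in untrained horses.

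The widest separations were in thinly counted members. In rank 31 the lowest untrained horse was 1.78 times the highest trained horse, with 8.46 to 15.5 normalized counts in untrained horses and 4.75, 1.71, 3.99 and 1.69 in trained horses 21, 31, 32 and 33. Horse 21 was its highest trained horse. In rank 22 the ratio was 1.52, with 19.5 to 37.9 in untrained horses and 3.57, 12.8, 7.99 and 10.1 in trained horses 21, 31, 32 and 33. Rank 32, the least counted, had 6.02 to 12.1 in untrained horses, 1.19 and 1.71 in trained horses 21 and 31, and 4.99 and 5.07 in trained horses 32 and 33. Ranks 31 and 32 had at least 10 counts in 0 trained libraries. Another 7 members reached 10 counts in 1 trained library, 4 in 2, 7 in 3 and 12 in all 4. Every member had at least 10 counts in at least 4 untrained libraries. Only those 12 would have passed the count filter on trained horses alone, and the others passed it through the untrained horses.

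The remaining members (ranks 5, 6, 10, 11, 13, 15 to 17, 19 and 23 to 30) had untrained means of 13.3 to 68.3 normalized counts, trained means of 5.26 to 41.6 and log2 differences of -1.44 to -0.48. Over all 32, the ratio of the lowest untrained to the highest trained value ran from 1.0002 to 1.78 with a median of 1.104. It was above 1.2 in 5 of the 32 and below 1.1 in 15. For none of the 32 were the 95% Poisson intervals of those 2 libraries separate, so in no member was the gap between the nearest pair of horses larger than counting error. Intervals cover counting error only, and reads without molecular identifiers are not independent molecules.

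At the edge of the selection, the 3 members with the narrowest gaps had ratios of 1.0002, 1.005 and 1.009. Of the genes just outside, the nearest 3 had ratios of 0.991, 0.983 and 0.977, and their log2 differences were -1.78, -0.50 and -0.53. A ratio above 0.9 was reached by 33 genes outside the selection. Single horses held many genes out: 49 further genes would have separated if trained horse 31 were ignored, 30 if untrained horse 17 were ignored and 19 if trained horse 32 were ignored. Each of the other 7 horses held out 4 to 9 genes alone. With normalization repeated on 9 horses, 81 genes separated without horse 31, of which 32 were the members given here. Without horse 17 there were 62, with 31 of the 32, and without horse 32 there were 51, with 31 of the 32. The number of genes past the count filter among 9 horses is not given, so these counts are not read as shares of one pool.

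Set against the untrained horses gene by gene, the trained horses differed among themselves. The median over the 32 genes was 69.1% of the untrained mean in horse 31, 63.0% in horse 32, 41.2% in horse 33 and 31.3% in horse 21. Each untrained horse, set against the other 5, had a median of 89.7% (horse 17) to 109% (horse 51). Over the 964 genes, the same medians were 96.8% to 100.2% in trained horses and 97.2% to 100.3% in untrained horses. The lowest single values were 4.37% in horse 21 and 0% in horse 33, against 13.7% and 13.8% in horses 31 and 32. Fewer than 3 counts lay behind 6 of the 32 values in horse 21, 5 in horse 33, 2 in horse 31 and 2 in horse 32.

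**Figure D4:**
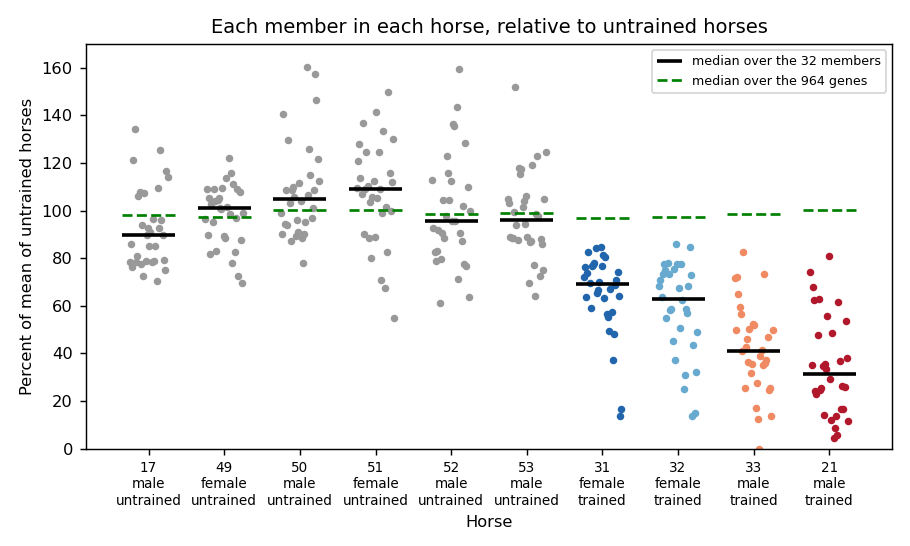
Each point is one of the 32 genes in one horse, as a percent of the mean of the untrained horses (for an untrained horse, of the other 5); black bars are medians over the 32 genes and dashed green bars medians over the 964 genes. The black bars run from 69.1% in horse 31 to 31.3% in horse 21 while the green bars stay at 96.8% or above.

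Horse 21 was the lowest trained horse in 19 of the 32 genes, horse 33 in 9, horse 32 in 3 and horse 31 in 1. Over the 964 genes, horse 21 was the lowest trained horse in 30.5%, horse 33 in 22.9%, horse 32 in 16.7% and horse 31 in 29.9%. At the other end, horse 31 was the highest trained horse in 18 members, horse 32 in 6, and horses 21 and 33 in 4 each. Over the 964 genes, the highest trained horse was horse 31 in 28.3%, horse 32 in 17.6%, horse 21 in 33.1% and horse 33 in 20.95%. The order from horse 21 through 33 and 32 up to 31 was held by 10 members, against 10.7% of the 964 genes. Both trained males were below both trained females in 21 of 32 members, against a background of 27.8% of the 964 genes, and above both females in 1 member, against 28.5%. With library totals in place of size factors the first count was 25, against 41.4% of genes, and with TMM scaling (edgeR's trimmed mean of M-values) it was 22, against 30.5%. The order inside the trained group was not part of the rule, but the rule kept only genes with low values in all trained horses. A gene in which the trained males lay far from the other horses could thus be kept only when they were low. The shares over the 964 genes are therefore no reference free of the choice, and nothing is read from these orders.

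All 4 untrained males were below both untrained females in 6 of the 32 genes, against 4.36% of the 964 genes, and above both in 3, against 4.77%. The log2 ratio of trained to untrained means had a median of -1.33 over the 32 genes in males, with a range of -4.64 to -0.41. In females it had a median of -0.70, with a range of -2.11 to -0.24. The medians over the 964 genes were 0.01 in males and -0.03 in females. In 28 members the value was lower in males, against 51.5% of the 964 genes. Because the rule demanded that males and females of the trained group both lie below all untrained horses, the sign of these values is fixed by the choice. The count of 28 is not independent of the choice either, since trained males far from the other horses could enter only on the low side.

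The difference between sexes was tested across 968 genes, all 32 members included, with training as a covariate (edgeR quasi-likelihood test, two-sided, Benjamini-Hochberg adjustment). No member passed an adjusted p of 0.05 (smallest edgeR adjusted p = 0.805), nor did any gene (0%). At an unadjusted p under 0.05, 6 of 32 members were lower in males, against a background of 2.48%, and 0 were higher in males, against 2.27%. The log2 difference of males from females had a median of -0.28 over the members and -0.01 over all tested genes, and it was negative in 27 of 32 members and in 51.1% of tested genes. The count of members at an unadjusted p under 0.05, in either direction, was 2 without trained horse 21 and 2 without trained horse 32. The tested genes at that p were 25 of 1012 and 26 of 1012. Without each of the others 4 to 7 members were counted, against 32 of 999 genes (without horse 31) to 90 of 956 (without horse 51). The fit holds the trained values that the rule chose on, so these member counts are not free of the choice. DESeq2 called 0 of 4211 genes, with 39 at an unadjusted p under 0.05 (0.926%), of which 4 were members.

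Whether the training difference itself differed between the sexes was tested by the interaction in edgeR; this test was added after the values of the trained horses had been seen. No member and no gene (0%) passed an adjusted p of 0.05, and the smallest edgeR adjusted p among members was 0.0905, at rank 20. At an unadjusted p under 0.05, 10 of 32 members had a more negative difference in males, against a background of 9.92%. A less negative one was found in 0 members, against 54 of the 968 tested genes. The fit used the same trained and untrained values as the rule, so neither count is independent of the choice. The 10 became 4 without horse 21 (background 4.84%), 6 without horse 31 (4.80%) and 6 without horse 51 (6.28%). Without each of the others the count was 7 to 14 (8.22% to 11.7%). Over all tested genes in both directions the background was 15.5%. DESeq2 called 1 gene of the 211 to which it gave an adjusted p (0.474%), no member, and it gave no adjusted p to 29 of the 32 members. It had 101 genes at an unadjusted p under 0.05 (2.40%), 5 of them members. No member thus passed the threshold for a training difference that differed between the sexes, at these depths and with 2 trained horses of each sex.

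Over all 10 horses, though little without the trained males, the members varied together inside the groups. After each group's mean was removed from log2(normalized count + 1), the median Pearson r over the 496 pairs of members was 0.35 across the 10 horses, against 0.00 over the pairs of all 964 genes. The rank-based median was 0.25 against -0.01. Pairs with r above 0.5 made up 37.3% of member pairs and 12.7% of all pairs, and negative r was found in 25.2% and 50.4%. These are descriptions across 10 horses whose libraries, depth and size factors all genes share. Genes in which the trained males lay far from the other horses could be kept only when those males were low. Members may thus share low values in these males through the choice, and the pairs of all 964 genes are no reference free of it. The value depended on the trained males: without horses 21 and 33 the median r among members was 0.06, and among untrained horses alone it was 0.07. The median r of all genes was 0.00 in both cases.

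**Figure D5:**
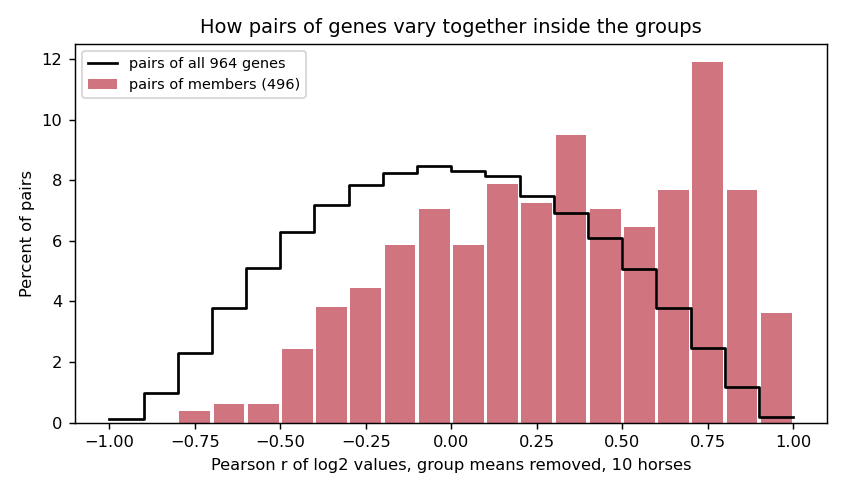
Distribution of Pearson r between pairs of genes over 10 horses after removal of group means; red bars are the 496 pairs of members and the black line all pairs of the 964 genes, both as percent of pairs. The red bars are shifted to the right, with 37.3% of member pairs above 0.5 against 12.7% of all pairs. The rule chose the members on the trained values used here, so the black line is no reference free of the choice.

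With all 4 trained horses, the members' spread was larger among the trained than among the untrained horses. The median coefficient of variation of the members was 16.2% in untrained and 43.0% in trained horses, against 22.3% and 27.7% over the 964 genes. It was larger in trained horses in 28 of 32 members and in 63.4% of the 964 genes. Between trained females 31 and 32 alone it had a median of 9.10% over the members and 13.9% over the 964 genes, and was larger than in untrained horses in 13 of 32 members and in 30.8% of the 964 genes. The rule favours genes with little spread among untrained horses and kept only genes with low trained values. The members' coefficients of variation and the counts of 28 and 13 are therefore not independent of the choice. They are given as a description, and nothing is read from them.

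In tests of the training contrast itself, which the rule used, edgeR put 8 of the 32 members past an adjusted p of 0.05, all with the trained horses lower, against a background of 0.93% of 968 genes. These were ranks 7, 12, 14, 18, 21, 22, 31 and 32, and over the 32 members the log2 fold changes of that fit had a median of -0.93. With 1 horse left out, the members called and the background moved together. Without trained horse 32 or 33, 0 were called (background 0%), without trained horse 21, 2 were called (0.296%), and without untrained horse 50, 4 were called (0.419%). Without untrained horse 17, 17 were called (3.23%), and without trained horse 31, 18 were called (5.11%). Without each of the other horses, 6 or 7 were called (0.632% to 0.839%). Without both trained males 0 were called (0 of 1066 tested genes), and the members' median log2 fold change was -0.61. The authors' deposited table had an adjusted p under 0.05 for 0 of the 32 and 1 lower gene in all (0.0416%), and an unadjusted p under 0.05 for 26 of the 32, against 5.5% of the 964 genes with a lower value in trained horses. The smallest adjusted p of a member in the authors' deposited table was 0.0792, at rank 22. Nothing is read from these counts, since the same contrast chose the genes.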

How the data were processed

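Whole-blood RNA of 10 horses was sequenced as 75-base single-end reads in 6 technical repetitions, per the series' design text. FastQC, STAR, RSEM and DESeq are named by the submitters' processing notes, with no versions or roles. No source used here gives the genome build, the strand setting or whether the repetitions were summed. The deposited table holds whole-number counts per gene, not normalized. The authors' deposited comparison table holds group means of counts divided by size factors (a signal), their ratio (fold), its log2 and p-values; its means for the 32 genes were recomputed with a largest difference of 4.55e-13.

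Size factors used the 1278 genes with a count in all 10 libraries. edgeR 4.0.16 in R 4.3.3 used filterByExpr (minimum count 10, total 15), TMM scaling, 968 genes, an adjusted p threshold of 0.05 and standard settings. DESeq2 1.42.0, other scalings, filters and horses left out were alternatives. The edgeR script was tested on simulated data. The members and lists were chosen with earlier results of these data known. Marker and pathway lists need symbols and could not be used. By the rule for named genes, only the member with the largest fall and the most deeply counted of the rest are named where no symbols exist. Each sample is a separate horse, and the tests use the spread between horses.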

Additional observations from a re-analysis of the deposited data

Results flagged for a closer look

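Among 68 sets of values searched (each of the 32 members, the summed value and the median percent, in each group), in 4 sets 1 horse lay far from its group mates, where 3.4 are expected at a chance rate of 5% per set. At rank 14, trained horse 31 had 29.9 normalized counts and the next trained horse 15.97. At rank 16, trained horse 33 had 16.9 and the next lowest 24.8. At rank 17, untrained horse 51 had 43.0 and the next highest 33.6, and at rank 32 the same horse had 6.02 and the next lowest 10.1.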

How the results depend on the processing

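The number of members stayed within 1.5 times of 32 with library totals (35, with 28 of the 32 kept), TMM (32, 29 kept), size factors without the 10 most deeply counted genes (31, 31 kept), count minimums of 5 (46) and 20 (23), and the 37 IDs kept in (33). It was 58 with no filter, 53 without both trained males (an alternative chosen after seeing the data, as was the test of interaction; 29 kept) and 34 to 81 with 1 horse left out. Fewer horses make the rule easier to meet. The number of genes the rule was applied to can also differ between settings, most of all with no filter, and is not given for them. These numbers of members are therefore not shares of one pool and are not compared as such. The members' median training difference on the log2 scale was -1.07 to -0.73 with 1 horse left out. edgeR's 9 genes lower in trained horses, of 968 tested, became 41 of 4213 with no filter and 28 of 950 without the 37 IDs. They became 16 of 968 with sex as a covariate and 0 of 1066 without both trained males. With 1 horse left out they were 0 to 51, of 949 to 1014 tested genes. With 0 called without both males, 128 of 1066 genes had an unadjusted p under 0.05 in either direction. Without horses 32 and 33, 233 of 1012 and 189 of 1014 had one. For sex, edgeR called 16 of 4213 genes with no filter, 0 of them members. For the interaction, calls were 1 of 211 genes with DESeq2 and 0 to 2 of 949 to 1014 with 1 horse left out. The median r among members was 0.57 with library totals (all genes 0.09), 0.39 with TMM, 0.060 without both trained males and 0.29 to 0.39 with 1 horse left out. The causes of these shifts were not tested. In 0 of 32 members the gap between the nearest horses of the groups exceeded counting error. With counts totalled over each group, the Poisson intervals of the groups were separate in 31 of the 32. Such intervals cover counting error only and leave out the spread between horses. The rule chose the genes by this same difference, and no share over all genes is given, so nothing is read from the 31. The part of depth in the results was not tested. No paired analysis was possible because the horses of the groups carry no shared numbers.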
